A study of Mus musculus with 8 samples.

Results

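The receptors that bind the Fc part of immunoglobulin G (IgG) were followed in adherent mouse peritoneal macrophages. Fcgr1, Fcgr3 and Fcgr4 are the activating receptors, Fcer1g encodes the gamma chain they signal through, Fcgr2b is the inhibitory receptor, and Fcgrt encodes the heavy chain of the neonatal Fc receptor FcRn. The 6 genes were chosen by name, and their probes were found through the transcript accession that the array gives for each probe. They are 6 of 21013 genes that the array's probes name, and all 6 are among the 14395 named genes that passed the detection filter. Each had 1 probe, which was well above background on all 8 arrays and saturated on none.

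Macrophages came from 8-week-old mice of mixed 129/C57Bl6 background, of either sex, with littermates as controls. Every group had 2 arrays. The Fra-1 knockout was Fra-1 lox/lox MxCre-/+, in which Cre is driven by the interferon-inducible Mx promoter. Its control was wild-type Fra-1 lox/lox, and both groups of the Fra-1 line were labelled thioglycollate elicited. The Fra-2 knockout was Fra-2 lox/lox LysMCre-/+, in which Cre is driven by the lysozyme M gene of myeloid cells. Its control was wild-type Fra-2 lox/lox, and neither group of the Fra-2 line carried the thioglycollate label. All 4 groups carry floxed alleles. Cells were washed from the peritoneal cavity, plated overnight and freed of suspension cells before RNA was taken. Line, thioglycollate label and preparation cannot be told apart, so a difference between the lines is a difference between these preparations.

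Macrophages take up IgG-coated particles through the activating Fc gamma receptors, whose ligand-binding chains need the gamma chain at the cell surface. The gamma chain is phosphorylated by Src-family kinases and recruits Syk, which starts actin-driven engulfment and the oxidative burst. Fcgr2b carries an inhibitory motif, recruits the phosphatase SHIP-1 and raises the threshold for activation. FcRn binds IgG inside acidic endosomes and returns it to the circulation. Interferon gamma is known to induce Fcgr1 and Fcgr4, and Fra-1 and Fra-2 are subunits of the AP-1 transcription factor.

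The stretches upstream of 4 of the Fc gamma receptor genes are shown because the genes did not move as one: Fcgr1, Fcgr3 and Fcgr2b were called lower in the Fra-1 line than in the Fra-2 line, and Fcgr4 was not. They are the 250 bases before the start of each gene in RefSeq's annotation of GRCm38.p6, read 5′ to 3′ on the strand of the gene. They lie at chr3:96293970-96294219 (minus strand) for Fcgr1, chr1:171059404-171059653 (minus strand) for Fcgr3, chr1:171018676-171018925 (plus strand) for Fcgr4 and chr1:170976072-170976321 (minus strand) for Fcgr2b. Capitals mark matches to the motifs named after the sequences.
Fcgr1: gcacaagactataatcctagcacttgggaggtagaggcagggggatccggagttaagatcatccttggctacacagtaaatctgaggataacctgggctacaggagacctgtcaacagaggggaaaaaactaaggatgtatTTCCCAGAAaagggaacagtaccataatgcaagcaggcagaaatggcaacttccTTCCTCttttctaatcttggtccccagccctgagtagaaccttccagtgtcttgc
Fcgr3: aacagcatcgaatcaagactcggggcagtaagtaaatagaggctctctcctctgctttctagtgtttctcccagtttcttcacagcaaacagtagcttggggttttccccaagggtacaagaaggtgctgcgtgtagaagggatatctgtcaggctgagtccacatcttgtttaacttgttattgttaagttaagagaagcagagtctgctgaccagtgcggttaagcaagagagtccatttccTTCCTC
Fcgr4: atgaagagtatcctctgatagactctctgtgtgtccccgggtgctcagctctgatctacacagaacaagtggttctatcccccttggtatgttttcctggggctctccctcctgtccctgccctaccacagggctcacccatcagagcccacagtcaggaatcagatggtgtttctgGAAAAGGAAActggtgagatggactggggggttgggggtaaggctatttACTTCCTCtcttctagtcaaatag
Fcgr2b: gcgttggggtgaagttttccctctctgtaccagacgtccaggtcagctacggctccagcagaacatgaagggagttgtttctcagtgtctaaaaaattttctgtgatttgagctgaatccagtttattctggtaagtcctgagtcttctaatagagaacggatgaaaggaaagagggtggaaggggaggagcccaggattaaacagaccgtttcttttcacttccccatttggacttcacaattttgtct

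Both strands of these stretches were searched for 5 strings of letters. The AP-1 string TGANTCA was found upstream of none of the 6 genes, and 6.75% of 32851 mouse promoter windows of the same length hold it. The interferon gamma activation string TTCNNNGAA was matched once, as TTCCCAGAA, whose first base lies 109 bases before the Fcgr1 start, and 7.02% of windows hold it. Upstream of Fcgr4, the interferon-stimulated response element (GAAA, any 2 bases, then GAAA) was matched as GAAAAGGAAA at 73 bases before the start, and 2.98% of windows hold it. The PU.1 string GAGGAAGT was matched on the opposite strand, as ACTTCCTC, at 24 bases before the Fcgr4 start, and 2.44% of windows hold it. The shorter ETS core GAGGAA, which lies within the PU.1 string, was matched upstream of Fcgr1, Fcgr3 and Fcgr4, and 23.3% of windows hold it. No string was matched upstream of Fcgr2b, Fcer1g or Fcgrt. These are matches of letters in reference sequence, and binding was not measured.

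A level is given here as log2 of the probe's signal over the 75th percentile of its array, so that 1 unit is a 2-fold difference. Levels of different probes are not set against each other. The 75th percentile of the signal lay between 310.6 and 463.7 intensity units, and 47.7% to 57.6% of spots per array were well above background. The Fra-1 gene Fosl1 was at -4.76 and -4.17 in the Fra-1 knockouts, below background on both arrays, against -2.69 and -1.95 in Fra-1 controls, at least 3.94-fold lower (adjusted p = 0.349). The Fra-2 gene Fosl2 was at 6.45 and 7.15 on the arrays labelled Fra-2 knockout, against 5.52 and 5.58 in Fra-2 controls, a log2 difference of 1.25 (adjusted p = 0.202). That direction goes against the label, and the position of the Fosl2 probe relative to the deleted part is not given in the sources used here, so this group is called labelled Fra-2 knockout throughout. The 7 macrophage marker genes were well above background on all 8 arrays.

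**Figure D1:**
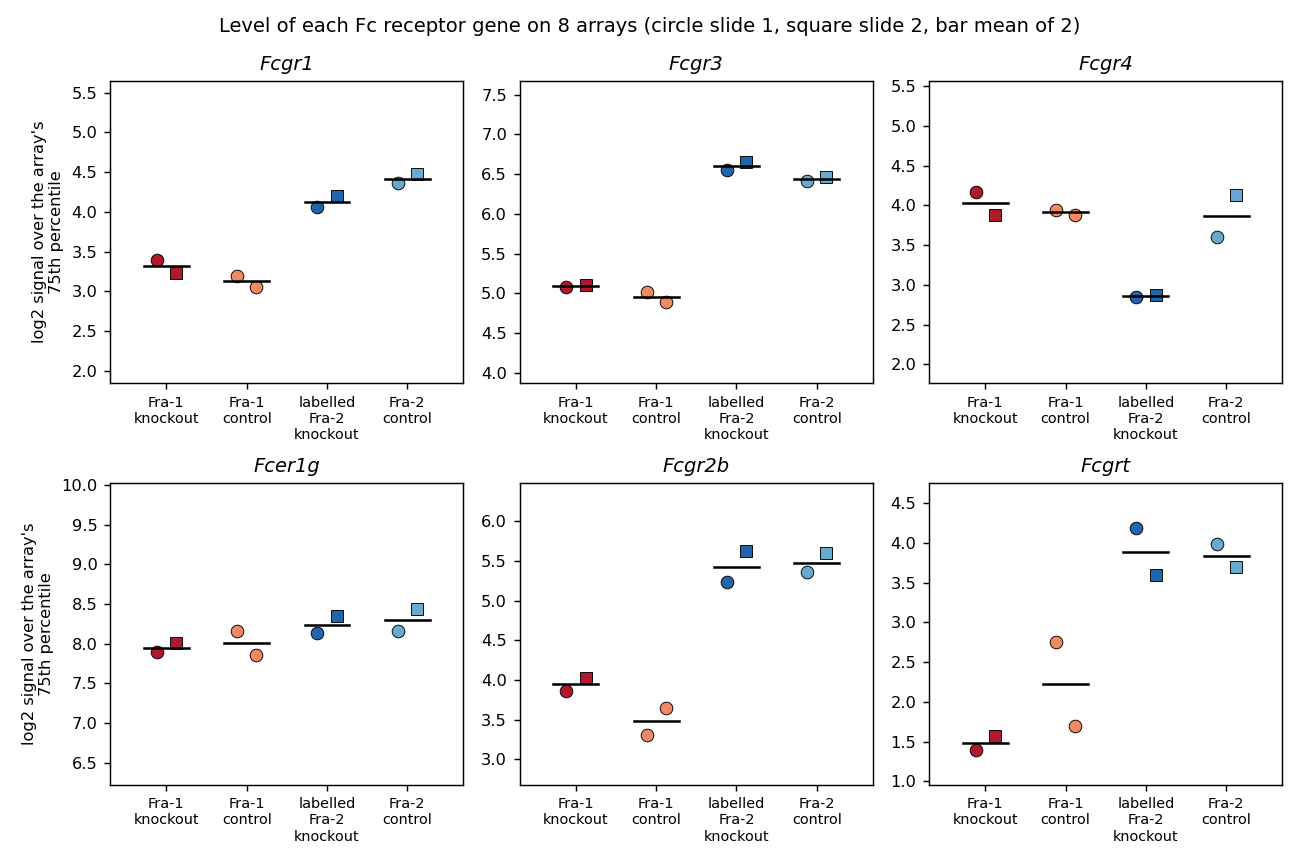
Level of each of the 6 genes on each of the 8 arrays, as log2 signal over the array's 75th percentile. Points are arrays, with circles for slide 1 and squares for slide 2, and bars are means of 2 arrays. All 6 panels span the same number of log2 units. Fcgr1, Fcgr3, Fcgr2b and Fcgrt sat lower in both groups of the Fra-1 line, Fcer1g was nearly level, and Fcgr4 was lowest on the arrays labelled Fra-2 knockout.

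Within each line, the IgG receptors of knockout and control macrophages did not differ past the threshold, an adjusted p under 0.05. In the Fra-1 line none of the 6 genes was called between knockout and control, where 0.0131% of all 22910 tested features (3 features) were called. In the Fra-2 line none was called between labelled knockout and control, where 0.00873% (2 features) were called. At an unadjusted p under 0.05, 8.77% of features in the Fra-1 line and 8.75% in the Fra-2 line passed, and of the 6 genes only Fcgr4 in the Fra-2 line did. Between the lines the picture was different. Among controls, 4 of the 6 genes were called, all lower in the Fra-1 line, where 36.1% of features were called in either direction and 17.3% lower. Among knockouts, 4 were called lower and 1 higher in the Fra-1 line, where 41.3% were called in either direction, 19.0% lower and 22.3% higher. The 4 genes called lower were the same in both comparisons, Fcgr1, Fcgr3, Fcgr2b and Fcgrt, and 13.1% of features were called lower in both. The median log2 difference of the 6 genes was -1.39 between controls and -1.15 between knockouts, beside -0.01 and 0.02 over all features tested.

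Fcgr1 encodes the high-affinity IgG receptor, which can bind monomeric IgG. Its level was 3.40 and 3.23 in Fra-1 knockouts and 3.20 and 3.05 in Fra-1 controls. It was 4.06 and 4.20 in labelled Fra-2 knockouts and 4.36 and 4.48 in Fra-2 controls. All 4 arrays of the Fra-1 line thus lay below all 4 of the Fra-2 line. Between controls, Fcgr1 was 2.45-fold lower in the Fra-1 line (95% interval 1.96 to 3.07), a log2 difference of -1.30 ± 0.13 (SE, adjusted p = 0.0011). Between knockouts it was 1.76-fold lower (95% interval 1.41 to 2.20), a log2 difference of -0.82 ± 0.13 (SE, adjusted p = 0.0050). In the order of the 4 group means, the Fra-2 control and the labelled Fra-2 knockout were next to each other, as were the Fra-1 knockout and the Fra-1 control, and neither pair passed the test. The knockout difference was 0.19 in the Fra-1 line (adjusted p = 0.722) and -0.29 in the Fra-2 line (adjusted p = 0.623), with arrays of knockout and control not overlapping in either line.

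Fcgr3 encodes a low-affinity receptor that binds IgG in immune complexes and is carried by macrophages, natural killer cells and mast cells. Its level was 5.08 and 5.11 in Fra-1 knockouts and 5.01 and 4.90 in Fra-1 controls. It was 6.55 and 6.65 in labelled Fra-2 knockouts and 6.41 and 6.47 in Fra-2 controls. The spread within a group was small, at most 0.08 (SD, n = 2), and the gap between the lines was far wider. Fcgr3 was 2.80-fold lower in Fra-1 controls than in Fra-2 controls (95% interval 2.31 to 3.39; log2 difference -1.48 ± 0.11 SE, adjusted p = 0.0005). It was 2.84-fold lower in Fra-1 knockouts than in labelled Fra-2 knockouts (95% interval 2.34 to 3.44; log2 difference -1.51 ± 0.11 SE, adjusted p = 0.0004). These 2 differences were close to each other, and the test of whether they differ gave -0.02 on the log2 scale (95% interval -0.41 to 0.37, adjusted p = 0.977). Within the lines the knockout difference was 0.14 (adjusted p = 0.757) in the Fra-1 line and 0.16 (adjusted p = 0.791) in the Fra-2 line.

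Fcgr4 encodes a receptor of intermediate affinity, best known for binding mouse IgG2a and IgG2b. Its level was 4.17 and 3.88 in Fra-1 knockouts and 3.94 and 3.88 in Fra-1 controls. It was 2.84 and 2.87 in labelled Fra-2 knockouts and 3.60 and 4.13 in Fra-2 controls. Fcgr4 was thus the gene whose labelled Fra-2 knockouts stood below every other array, and its arrays in the other 3 groups overlapped. Fcgr4 was 2.25-fold higher in Fra-1 knockouts than in labelled Fra-2 knockouts (95% interval 1.60 to 3.17), a log2 difference of 1.17 ± 0.20 (SE, adjusted p = 0.0063). Between controls the log2 difference was 0.04 (95% interval -0.45 to 0.54, adjusted p = 0.887). Its direction between controls turned under other scalings, with -0.02 after quantile normalization.

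The difference of Fcgr4 between labelled Fra-2 knockout and Fra-2 control was -1.01 ± 0.20 on the log2 scale (SE; 95% interval -1.51 to -0.52), a 2.02-fold lower level. Its unadjusted p of 0.0024 was larger than that of 1.11% of the features tested, and its adjusted p of 0.217 did not pass the threshold. Within slides the difference was -0.76 on slide 1 and -1.26 on slide 2. Over all alternatives its adjusted p lay between 0.101 and 0.659. In the Fra-1 line the knockout difference of Fcgr4 was 0.12 (95% interval -0.38 to 0.61, adjusted p = 0.908). The difference between the 2 knockout differences, Fra-1 line minus Fra-2 line, was 1.13 ± 0.29 (SE, unadjusted p = 0.0075, adjusted p = 0.341), where 0.00436% of features (1 feature) were called and none of the 6 genes was. At an unadjusted p under 0.05, 9.46% of features passed in that comparison, and Fcgr4 and Fcgr1 were among them.

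Fcer1g encodes the gamma chain, which Fcgr1, Fcgr3 and Fcgr4 share with the high-affinity IgE receptor and with several lectin-type receptors. Its level was 7.90 and 8.01 in Fra-1 knockouts and 8.16 and 7.86 in Fra-1 controls. It was 8.13 and 8.35 in labelled Fra-2 knockouts and 8.16 and 8.44 in Fra-2 controls. Neighbouring groups overlapped throughout, and the whole range over the 8 arrays was 0.58, the narrowest of the 6 genes. The log2 difference was -0.29 between controls (95% interval -0.71 to 0.13, adjusted p = 0.240) and -0.29 between knockouts (95% interval -0.71 to 0.13, adjusted p = 0.224). The intervals thus reached as far as a 1.64-fold lower level in the Fra-1 line. That is short of the fitted fold of Fcgr1, Fcgr3 and Fcgr2b in both comparisons. It lies within the 95% interval of Fcgr1 between knockouts (1.41 to 2.20), and the genes were not tested against each other. The knockout difference was -0.06 in each line (adjusted p = 0.947 in the Fra-1 line and 0.984 in the Fra-2 line), and its sign turned under quantile normalization in both lines, to 0.04 and 0.07.

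Fcgr2b encodes the inhibitory receptor, the only Fc gamma receptor of B cells and also found on macrophages and mast cells. Its level was 3.86 and 4.03 in Fra-1 knockouts and 3.31 and 3.65 in Fra-1 controls. It was 5.23 and 5.62 in labelled Fra-2 knockouts and 5.35 and 5.60 in Fra-2 controls. The lines did not overlap, and neither did Fra-1 knockouts and Fra-1 controls. Fcgr2b was 3.99-fold lower in Fra-1 controls than in Fra-2 controls (95% interval 2.83 to 5.62; log2 difference -2.0 ± 0.20 SE, adjusted p = 0.0011). It was 2.80-fold lower in Fra-1 knockouts than in labelled Fra-2 knockouts (95% interval 1.99 to 3.94, log2 difference -1.48 ± 0.20 SE, adjusted p = 0.0028). Within the Fra-1 line, the knockout difference was 0.46 ± 0.20 (SE, unadjusted p = 0.063, adjusted p = 0.604), and within the Fra-2 line it was -0.05 (adjusted p = 0.987).

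The Fcgr2b probe was printed 10 times on each array, so the error of the spot itself can be set beside the gap between mice. The SD over the 10 spots of an array lay between 0.05 and 0.10 log2 units. The spots ranged from 3.71 to 4.15 in Fra-1 knockouts and from 3.17 to 3.73 in Fra-1 controls, so that the highest control spots overlapped the lowest knockout spots. In labelled Fra-2 knockouts they ranged from 5.10 to 5.73, and in Fra-2 controls from 5.25 to 5.71. No spot of the Fra-1 line reached the level of any spot of the Fra-2 line. The other 5 genes had 1 spot per array, and spots of 1 array are not replicates of a condition.

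**Figure D2:**
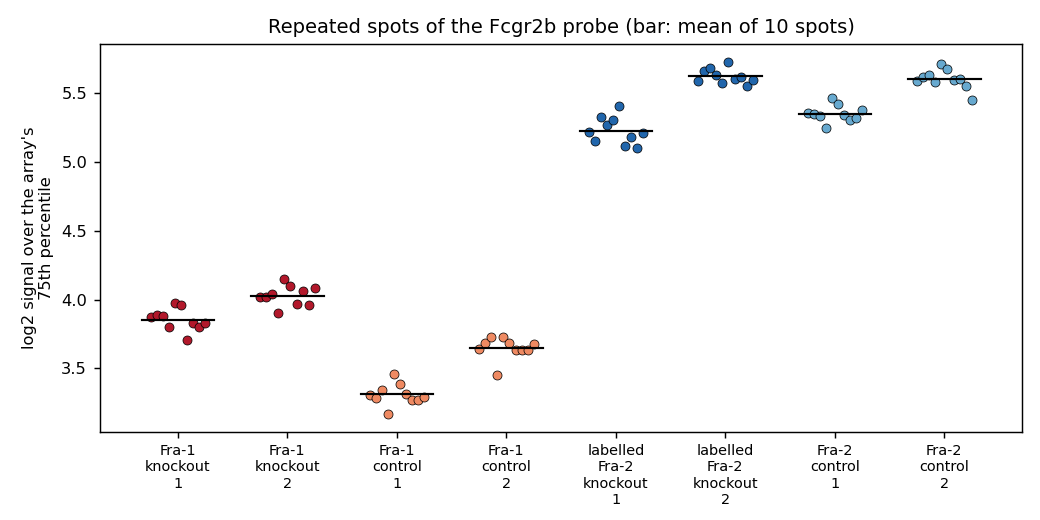
The 10 repeated spots of the Fcgr2b probe on each array, as log2 signal over the array's 75th percentile, with a bar at the mean of the spots. Spots of the Fra-1 line lay between 3.17 and 4.15, and spots of the Fra-2 line between 5.10 and 5.73.

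Fcgrt encodes the heavy chain of FcRn, which pairs with beta-2 microglobulin and lies outside the signalling receptors. Its level was 1.39 and 1.57 in Fra-1 knockouts and 2.75 and 1.70 in Fra-1 controls. It was 4.19 and 3.59 in labelled Fra-2 knockouts and 3.98 and 3.69 in Fra-2 controls. The Fra-1 controls differed from each other by more than those of any other gene here, with an SD of 0.74 (n = 2), and the lines still did not overlap. Fcgrt was 5.32-fold lower in Fra-1 knockouts than in labelled Fra-2 knockouts (95% interval 2.81 to 10.1; log2 difference -2.41 ± 0.38 SE, adjusted p = 0.0045). Between controls it was 3.06-fold lower in the Fra-1 line (95% interval 1.62 to 5.80; log2 difference -1.61 ± 0.38 SE, adjusted p = 0.020). That call between controls was lost when Fra-1 control 2 was left out (-1.09, adjusted p = 0.058), when Fra-2 control 1 was left out (-1.47, adjusted p = 0.089) and when Fra-2 control 2 was left out (-1.76, adjusted p = 0.058). The knockout difference was -0.74 ± 0.38 in the Fra-1 line (SE, adjusted p = 0.653), with -0.22 without the first Fra-1 control and -1.27 without the second, and 0.05 ± 0.38 in the Fra-2 line (SE, adjusted p = 0.992). B2m, the partner chain, had a log2 difference of 0.11 between controls (adjusted p = 0.706) and -0.09 between knockouts (adjusted p = 0.760).

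**Figure D3:**
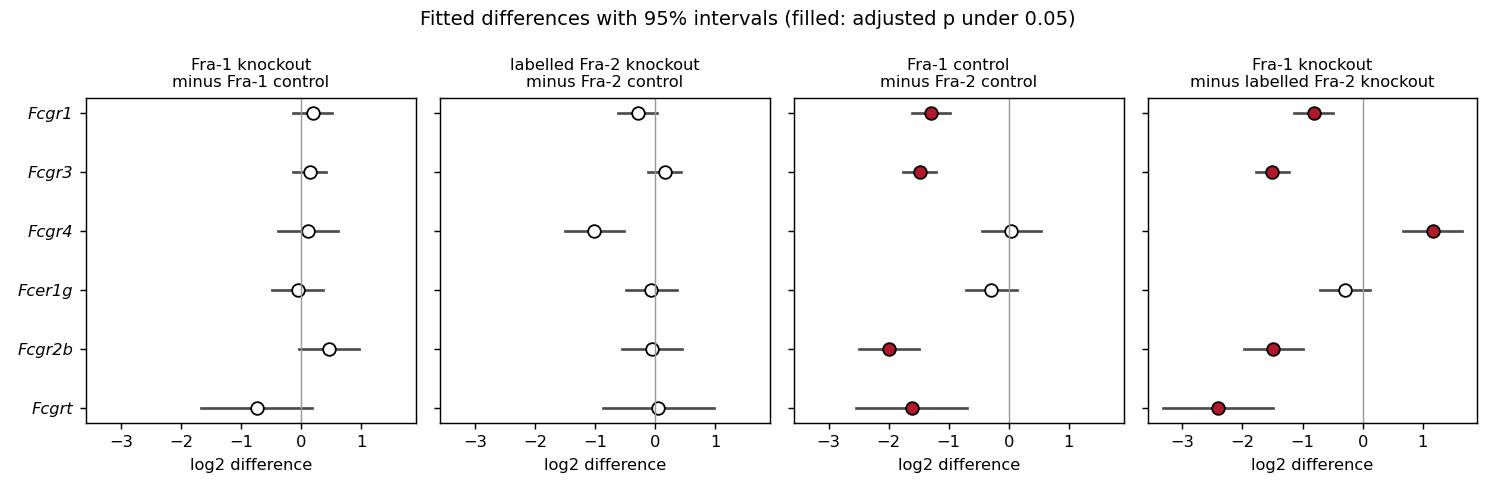
Fitted log2 differences of the 6 genes with their 95% intervals in 4 comparisons, each written as the first group minus the second. Filled points had an adjusted p under 0.05. The left 2 panels hold no filled point, and in the panel of controls Fcgr1, Fcgr3, Fcgr2b and Fcgrt lie below 0 while Fcgr4 and Fcer1g have intervals across 0.

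Arrays of the groups compared did not overlap for 4 of the 6 genes between Fra-1 knockout and Fra-1 control, where 46.0% of features did not overlap. They did not overlap for 3 genes between labelled Fra-2 knockout and Fra-2 control (34.9% of features), for 4 between the controls (71.8%) and for 6 between the knockouts (75.6%). With 2 arrays a group such a count is common across the array. In the plot of all features, the 4 genes called lower in both comparisons lie within the diagonal cloud of features that differ between the lines, and Fcgr4 lies toward the upper side of that cloud.

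**Figure D4:**
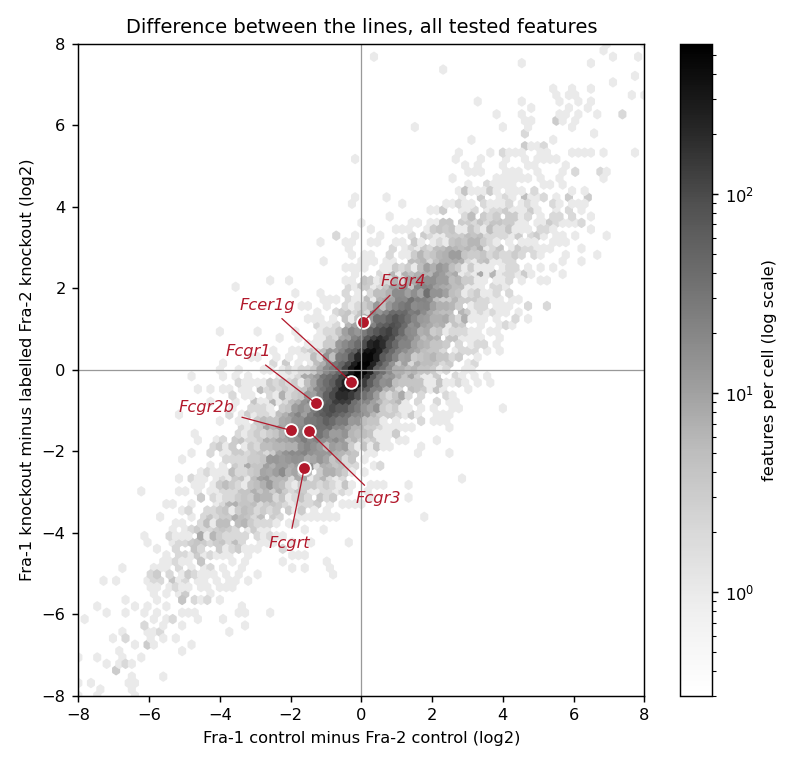
Log2 difference between the lines among controls (horizontal) and among knockouts (vertical) for all 22910 tested features, shaded by the number of features per cell on a log scale, with the 6 genes as red points; 27 features with a difference beyond 8 on either axis fall outside the frame. The 2 axes share no array. Fcgr4 sits at 0.04 and 1.17, and Fcgrt at -1.61 and -2.41.

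The balance of activating and inhibitory receptors in bulk RNA was followed as the log2 ratio of each probe to the Fcgr2b probe on the same array. The size of this ratio depends on the probes. Its difference between groups is free of them only if each signal is proportional to RNA, which was not tested. The ratio of Fcgr4 to Fcgr2b lay between -0.15 and 0.31 in Fra-1 knockouts and between 0.23 and 0.62 in Fra-1 controls. It lay between -2.76 and -2.39 in labelled Fra-2 knockouts and between -1.75 and -1.47 in Fra-2 controls. The ratio was thus 6.30-fold higher in Fra-1 knockouts than in labelled Fra-2 knockouts and 4.11-fold higher in Fra-1 controls than in Fra-2 controls, with no overlap of the lines. The ratio of Fcgr1 to Fcgr2b was 1.59-fold higher in the Fra-1 line between knockouts and 1.63-fold between controls, without overlap. For Fcgr3 it was 1.01-fold lower between knockouts, with overlapping arrays, and 1.43-fold higher between controls. The ratio of Fcer1g to Fcgr2b was 2.29-fold higher between knockouts and 3.26-fold higher between controls. Ratios to a shared probe all carry the Fcgr2b difference and were given no test of their own.

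Across the 8 arrays, Fcgr1, Fcgr3 and Fcgr2b followed each other, with Pearson's r of 0.958 between Fcgr1 and Fcgr3, 0.962 between Fcgr1 and Fcgr2b and 0.975 between Fcgr3 and Fcgr2b. Fcgr4 had a negative r with each of the other 5, from -0.30 with Fcer1g to -0.65 with Fcgr3. The arrays fall into the 2 lines, so these values describe mainly the gap between them and carry no test. Among 14394 other named genes, the pattern most like that of Fcgr1 belonged to Arntl (r = 0.996), Aif1 and Tap2. Closest to Fcgr3 were Syn2, Slc25a45 and 2610507I01Rik (r = 0.999 each), and closest to Fcgr2b were Ccr1 (r = 0.998), Hcar2 and Pilrb1. For Fcgrt they were Rgs10 (r = 0.995), Tcp11l2 and Nemp1. Closest to Fcgr4 were Rint1 (r = 0.991), Poldip2 and Sh3bgrl2, and closest to Fcer1g were Asxl2 (r = 0.989), Ltbr and Trappc11. How many genes were so alike varied widely. An r over 0.95 was reached by 598 genes for Fcgr1, 1300 for Fcgr3, 823 for Fcgr2b and 332 for Fcgrt, against 9 for Fcgr4 and 34 for Fcer1g.

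Fcgr2b, Fcgr4, Fcgr3 and Fcer1g lie in this order on chromosome 1, Fcgr1 lies on chromosome 3 and Fcgrt on chromosome 7. Between Fcgr2b and Fcer1g, RefSeq's annotation of GRCm38.p6 lists 38 other genes, most of them transfer RNAs, and 6 of them were tested here. None of those 6 was called lower in the Fra-1 line, where 17.3% of all features were called lower between controls and 19.0% between knockouts. Between controls 2 were called higher and between knockouts 3, beside 18.8% and 22.3% of all features. Counts out of 6 genes are too small to be told apart from these shares. The log2 differences of the 6 ran from -0.23 to 2.57 and from -0.89 to 2.84. The neighbouring genes Fcgr2b and Fcgr4 thus differed in whether they were called lower in the Fra-1 line, and Fcgr1, on another chromosome, was called lower as Fcgr2b and Fcgr3 were.

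The genes around the IgG receptors were taken from 6 lists. No listed gene was called between knockout and control in either line with the settings used here. The smallest adjusted p belonged to Lat2, an adaptor of Fc receptor signalling, which averaged 1.50 ± 0.07 in labelled Fra-2 knockouts and 2.81 ± 0.11 in Fra-2 controls (SD, n = 2 each; log2 difference -1.32, adjusted p = 0.110). With a trended prior for the spread, Lat2 was called (adjusted p = 0.042). Coro1a, an actin-binding protein of phagocytes, averaged 6.59 ± 0.21 in labelled Fra-2 knockouts and 5.65 ± 0.17 in Fra-2 controls (SD, n = 2 each; log2 difference 0.94, adjusted p = 0.173). In the Fra-1 line the smallest adjusted p was that of Gab2, a docking protein, with a log2 difference of -1.06 (adjusted p = 0.338). Ubash3b, a phosphatase that acts on Syk, had a log2 difference of 0.62 there (adjusted p = 0.414). The lists below are therefore described between the lines, where 36.1% of all features were called among controls (18.8% higher, 17.3% lower) and 41.3% among knockouts (22.3% higher, 19.0% lower). The shares of a list that were called are given beside these and carry no test.

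The first list holds 14 genes, other Fc receptors and the FcRn light chain B2m, of which 11 were tested. Of these, 5 were called lower in the Fra-1 line and none higher, both between controls and between knockouts. The median log2 difference was -0.37 and -0.47. That is 45.5% of the list in each comparison, beside 36.1% and 41.3% of all features, so the share called in either direction was near that of the array. Fcer1a, the IgE-binding chain of the mast cell receptor, was below background in both Fra-1 knockouts and at least 90.3-fold lower than in labelled Fra-2 knockouts (adjusted p = 0.001). Between controls Fcer1a was 60.5-fold lower in the Fra-1 line. Fcrla and Fcmr, which B cells carry, were 23.9-fold and 15.4-fold lower between controls. Fcer2a, the low-affinity IgE receptor of B cells, was 3.32-fold lower between controls. Trim21, the cytosolic antibody receptor, had a log2 difference of -0.87 between controls (adjusted p = 0.007) and -0.91 between knockouts (adjusted p = 0.006). Fcer1a also stands in the mast cell marker list and Fcer2a in the B cell list. Between knockouts the count of called genes was 3 without the first labelled Fra-2 knockout.

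Among 7 tested receptors that pair with the gamma chain, of 8 listed, 5 were called lower in the Fra-1 line and 1 higher in both comparisons, which is 85.7% of the list, beside 36.1% and 41.3% of all features. Clec4e (Mincle), a receptor for mycobacterial cord factor, averaged 2.09 ± 0.03 in Fra-1 controls and 7.85 ± 0.36 in Fra-2 controls (SD, n = 2 each), a log2 difference of -5.76. Clec4n (Dectin-2), which binds fungal mannans, averaged 2.96 ± 0.08 in Fra-1 controls and 8.81 ± 0.37 in Fra-2 controls (SD, n = 2 each), a log2 difference of -5.85. These gaps were far wider than that of Fcer1g itself, which was not called. Tarm1 was below background in all 4 arrays of the Fra-1 line and at least 13.8-fold lower between controls and at least 17.7-fold lower between knockouts. Gp6, the platelet collagen receptor, was at least 5.13-fold lower between controls. Clec4d was called lower, with log2 differences of -1.27 and -1.08. Pira2, a paired immunoglobulin-like receptor from a family of near-identical copies whose signals cannot be told apart here, was called higher, with log2 differences of 1.98 and 1.77.

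Of 23 activating signalling genes, 2 were called higher and 10 lower in the Fra-1 line between controls, and 2 higher and 13 lower between knockouts, with a median log2 difference of -0.32 and -0.54. The share called was 52.2% between controls and 65.2% between knockouts, beside 36.1% and 41.3% of all features. Lcp2 (SLP-76), a scaffold downstream of Syk, was 6.63-fold lower in the Fra-1 line between controls. Card9, which links Syk to NF-kappaB, was 2.57-fold lower, and Lyn, the Src-family kinase, had a log2 difference of -1.36 (adjusted p = 0.001). The genes called higher were adaptors: Blnk was 5.75-fold higher between controls and 8.39-fold between knockouts, and Lat2 was 3.36-fold and 9.54-fold higher. Syk had log2 differences of 0.25 between controls (adjusted p = 0.316) and -0.18 between knockouts (adjusted p = 0.445).

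Of 12 tested inhibitory signalling genes, of 14 listed, 3 were called higher and 2 lower in the Fra-1 line between controls, and 4 higher and 3 lower between knockouts. The share called was 41.7% and 58.3%, beside 36.1% and 41.3% of all features, so between controls the count was near that of the array. The 2 phosphatases best known for acting behind Fcgr2b and related receptors were called lower with it. Inpp5d (SHIP-1) averaged 4.55 ± 0.31 in Fra-1 controls and 5.38 ± 0.03 in Fra-2 controls (SD, n = 2 each), a 1.77-fold lower level (adjusted p = 0.016). Ptpn6 (SHP-1) averaged 4.21 ± 0.01 in Fra-1 controls and 5.22 ± 0.09 in Fra-2 controls (SD, n = 2 each), a 2.01-fold lower level (adjusted p = 0.003). Inppl1 (SHIP-2) was 2.20-fold higher and Cblb, a ubiquitin ligase, 4.32-fold higher in Fra-1 controls, and Dok2, an adaptor that dampens Ras signalling, was 2.17-fold higher in Fra-1 knockouts than in labelled Fra-2 knockouts. Between controls 2 were called higher and 1 lower without either Fra-2 control. Between knockouts 2 were called higher and 1 lower without the first Fra-1 knockout, and 3 higher and 1 lower without the second.

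The actin list of 21 genes was called 5 higher and 5 lower in both comparisons, 47.6% of the list beside 36.1% and 41.3% of all features, so these counts lie near those of the array. Marcksl1, a membrane-bound actin regulator, was 31.6-fold lower and Vasp, which lengthens actin filaments, 3.30-fold lower in Fra-1 controls. Gsn (gelsolin), which severs filaments, was 5.30-fold higher in Fra-1 controls and 9.0-fold higher in Fra-1 knockouts than in the Fra-2 groups. Its relative Scin was at least 5.01-fold lower in Fra-1 knockouts. Without the second Fra-2 control, and also with no filter on dim probes, 2 were called higher and 4 lower between controls.

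Of 21 tested interferon gamma response genes, of 22 listed, 14 were called lower in the Fra-1 line between controls and 13 between knockouts, and none higher, with a median log2 difference of -1.21 and -1.01. The share called was 66.7% and 61.9%, beside 36.1% and 41.3% of all features. Between knockouts 8 were called lower without the second Fra-1 knockout. The guanylate-binding proteins act against pathogens inside cells. Gbp5 averaged -2.0 ± 0.29 in Fra-1 controls and 3.42 ± 0.83 in Fra-2 controls (SD, n = 2 each), a log2 difference of -5.42, and Gbp7 and Gbp2 were 12.2-fold and 12.0-fold lower. Gbp3 was 6.79-fold lower between knockouts. Cxcl9, a chemokine, had a log2 difference of -3.64 between controls and was above background on 1 of 2 Fra-1 control arrays. Ifngr1, the ligand-binding chain of the interferon gamma receptor, had log2 differences of -0.84 (adjusted p = 0.004) and -1.01 (adjusted p = 0.002). Fcgr1 and Fcgr4 are both known targets of this cytokine. Fcgr1 was called lower in the Fra-1 line in both comparisons, and Fcgr4 was called higher there between knockouts and not called between controls. The part of interferon gamma in these values was not tested.

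**Figure D5:**
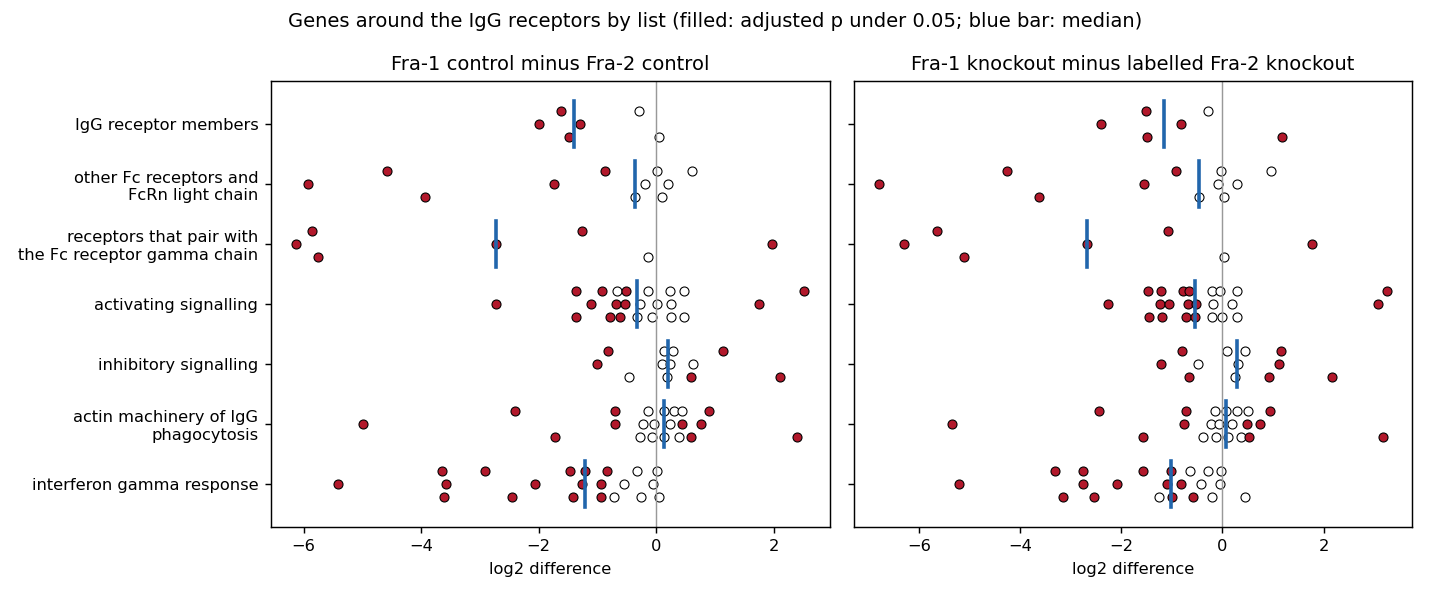
Log2 difference between the lines, among controls (left) and among knockouts (right), for the 6 IgG receptor genes and the tested genes of the 6 lists around them. Each point is a gene, filled where its adjusted p was under 0.05, and blue bars are medians. In the interferon gamma list every filled point lies below 0, and the actin list is filled on both sides.

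The cells on the arrays differed between the lines in more than these receptors, and in bulk RNA fewer cells of a type and less RNA per cell cannot be told apart. Sums of marker levels are given on a linear scale relative to each array's 75th percentile. The macrophage markers summed to 913 to 985 in Fra-1 knockouts, 949 to 1214 in Fra-1 controls, 1197 to 1263 in labelled Fra-2 knockouts and 1278 to 1439 in Fra-2 controls. Of these 7 genes, 4 were called lower and 1 higher in the Fra-1 line, both between controls and between knockouts. That is 71.4% of the list, beside 36.1% and 41.3% of all features. Between controls Csf1r, Adgre1, Mertk and Cd14 had log2 differences of -2.29, -1.59, -0.62 and -3.92. Cd68 had 1.95, and Lyz2 (-0.68) and Itgam (0.09) were not called. The 6 markers of large resident peritoneal macrophages summed to 13.0 to 14.0 in Fra-1 knockouts and 12.5 to 13.3 in Fra-1 controls. The same sum was 253 to 355 in labelled Fra-2 knockouts and 157 to 262 in Fra-2 controls.

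B cells and mast cells are known to carry Fcgr2b, and mast cells Fcgr3. The B cell markers, 5 of 7 above background on all 8 arrays, summed to 2.43 to 5.61 in Fra-1 knockouts and 1.67 to 3.62 in Fra-1 controls. They summed to 51.4 to 73.8 in labelled Fra-2 knockouts and 38.8 to 82.0 in Fra-2 controls. The mast cell markers, 6 of 8 above background on all arrays and Ms4a2 on none, summed to 1.37 to 1.59 in Fra-1 knockouts and 2.32 to 2.78 in Fra-1 controls. They summed to 43.2 to 100.6 in labelled Fra-2 knockouts and 44.5 to 136.8 in Fra-2 controls. Both lists therefore ran in the same direction as Fcgr2b and Fcgr3 between the lines, and their part in the receptor differences was not tested.

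The remaining marker lists were read in the same way. Monocyte markers summed to 54.4 to 80.8 in Fra-1 knockouts and 70.0 to 134.0 in Fra-1 controls, against 12.1 to 20.5 in labelled Fra-2 knockouts and 5.60 to 8.81 in Fra-2 controls. Dendritic cell markers, with Xcr1 above background on no array, summed to 99.2 to 118.0 in Fra-1 knockouts and 108.4 to 116.0 in Fra-1 controls, against 9.69 to 13.4 in labelled Fra-2 knockouts and 21.8 to 29.1 in Fra-2 controls. Thus monocyte and dendritic cell markers ran opposite to Fcgr1, Fcgr3 and Fcgr2b. Fibroblast markers summed to 40.8 to 63.9 in Fra-1 knockouts and 111.2 to 158.6 in Fra-1 controls, and to between 1.37 and 3.23 in the Fra-2 line. Mesothelial markers summed to 4.69 to 7.06 in Fra-1 knockouts and 10.0 to 14.5 in Fra-1 controls, and to between 0.68 and 0.87 in the Fra-2 line. Fibroblast, mesothelial and mast cell sums were lower in Fra-1 knockouts than in Fra-1 controls without overlap, as was Fcgrt. In that comparison 46.0% of all features did not overlap. Of the mesothelial markers, Msln, Upk3b and Krt19 each overlapped between these groups, and so did Mcpt4 and Kit of the mast cell markers. No tested gene of these lists was called there, where 0.0131% of all features were. The part of these cells in the Fcgrt values was not tested.

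T cell markers summed to between 1.46 and 1.83 in the Fra-1 line and between 4.04 and 4.84 in the Fra-2 line. Natural killer cell markers, which matter here because those cells carry Fcgr3, summed to between 0.48 and 0.60 in the Fra-1 line and between 0.63 and 0.81 in the Fra-2 line, with 2 of 5 above background on all arrays. Eosinophil markers, with Epx above background on no array, summed to 5.19 to 5.99 in Fra-1 knockouts, 5.23 to 5.42 in Fra-1 controls, 0.66 to 0.79 in labelled Fra-2 knockouts and 0.64 to 2.66 in Fra-2 controls. Neutrophil markers, whose cells carry Fcgr4 and Fcgr3, summed to 31.2 to 42.3 in Fra-1 knockouts and 29.1 to 37.6 in Fra-1 controls. They summed to 35.6 to 52.6 in labelled Fra-2 knockouts and 18.8 to 22.8 in Fra-2 controls. The sum was higher in the labelled knockouts, whose Fcgr4 level was the lower one. None of the 7 tested neutrophil markers was called between these groups, where 0.00873% of all features were. Retnlg and Cxcr2 had log2 differences of -1.05 and -0.31. S100a8, Elane and Camp had 0.57, 0.32 and 0.47, and S100a9 and Mpo had 4.94 and 2.93. The part of neutrophils in the Fcgr4 values was not tested. Dendritic cell and macrophage sums were lower in labelled Fra-2 knockouts than in Fra-2 controls without overlap, as were Fcgr4 levels. In that comparison 34.9% of all features did not overlap. The genes of these lists did not all go that way. Itgax had a log2 difference of -1.22, Cd68 of -0.38 and Lyz2 of -0.36, while Cd14 had 0.31 and Itgam 0.46, none of them called. The part of these cells in the Fcgr4 values was not tested. Endothelial markers, with Tek and Emcn above background on no array, summed to between 6.87 and 9.17 in the Fra-1 line and between 8.03 and 10.8 in the Fra-2 line.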

How the data were processed

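RNA of adherent peritoneal cells was hybridised as Cy3-labelled cRNA to 1-colour Agilent arrays, 2 per group, which the series' design text counts as mice. The authors deposited scanner output with processed signals as intensity, made by Agilent Feature Extraction 11.5.1.1 per the file headers, and a value table that is on a log2 scale. The table followed the scanner values with a slope of 1.00, each probe was centred near 0 over the arrays, and the array medians lay between -0.16 and 0.25; why they differ is not given in the sources used here.

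Spots marked as outliers were left out, spots of a probe were averaged, and 548 of 55681 probes without a spot on every array were dropped. Levels are log2 of the processed signal minus each array's 75th percentile. Probes were kept if well above background on both arrays of at least 1 group, and the brightest probe stood for a gene or unnamed transcript, giving 22910 features. Groups were compared with limma 3.58.1 in R 4.3.3 (lmFit and eBayes over 4 group means, 4 residual degrees of freedom), with Benjamini-Hochberg adjustment over all features and a threshold of 0.05. Where a gene was below background on both arrays of a group, the fold is a bound against the lowest signal well above background. All intervals and p-values measure only the spread between these samples, and 2 arrays per group limit the precision. The fit was tested on simulated data.

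The members and lists were chosen with earlier results of these data known. Named list genes are up to 4 called ones with the largest difference per list and comparison, or up to 2 with the smallest p; Trim21, B2m, Clec4d, Pira2, Lyn, Syk and Ifngr1 were added after their values were seen. Alternatives were scaling by quantiles, a normexp correction (offset 50), the deposited value table, other filters on dim probes, the mean of a gene's probes, slide as a block, a trended prior, another set of probes for the percentile, fits of only the groups compared, and leaving out each array. Promoter sequences are RefSeq's for GRCm38.p6. The array header names the build mm9, so no coordinates of probes are given.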

Additional observations from a re-analysis of the deposited data

Results flagged for a closer look

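Fcgr1 was singled out because its arrays moved opposite ways in the lines. Both Fra-1 knockouts lay above both Fra-1 controls, with 3.40 and 3.23 against 3.20 and 3.05, while both labelled Fra-2 knockouts lay below both Fra-2 controls, with 4.06 and 4.20 against 4.36 and 4.48. Knockout and control arrays did not overlap for 46.0% of all features in the Fra-1 line and for 34.9% in the Fra-2 line. In limma's test of the 2 knockout differences, 9.46% of features had an unadjusted p under 0.05. Fcgr4 was among them, with a larger difference of 1.13. For Fcgr1, picked on this same pattern, the difference between the 2 knockout differences was 0.48 on the log2 scale (95% interval 0.02 to 0.94, unadjusted p = 0.043). With limma's adjustment over all features the adjusted p was 0.512, and it lay between 0.337 and 0.894 over the alternatives, so it did not pass the threshold.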

How the results depend on the processing

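Between the lines, every call of Fcgr1, Fcgr3 and Fcgr2b, and those of Fcgr4 and Fcgrt between knockouts, kept its direction and its side of the threshold under all alternatives that give a test. The call of Fcgrt between controls was lost without Fra-1 control 2, Fra-2 control 1 or Fra-2 control 2, with log2 differences from -2.14 to -1.09 over the arrays left out. Within slides, Fcgr4 differed by -0.76 and -1.26 between labelled Fra-2 knockout and Fra-2 control and by 0.31 between controls, and Fcgr1 by -0.67 and -0.97 between knockouts. On slide 2, labelled Fra-2 knockout minus Fra-2 control turned in sign for Fcgr2b (0.0216) and Fcgrt (-0.0988). No paired analysis was possible because the labels' numbers do not repeat across the groups, and the replicate numbers used here follow accession order only. Differences that were never called turned in sign as follows. Fcer1g became 0.0428 (quantile) and 0.00485 (normexp) in the Fra-1 line and 0.0737 (quantile) in the Fra-2 line, and Fcgr4 between controls became -0.0245 (quantile) and -0.0132 (percentile over probes above background on all arrays). The difference of knockout differences became 0.00289 for Fcgr3 and 0.0218 for Fcer1g with the value table and 0.00826 for Fcer1g with normexp.

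Leaving out 1 array gave ranges of -1.27 to -0.22 for Fcgrt, -0.0265 to 0.26 for Fcgr4 and -0.21 to 0.0892 for Fcer1g in the Fra-1 line, and of -0.20 to 0.0821 for Fcer1g, -0.25 to 0.15 for Fcgr2b and -0.24 to 0.35 for Fcgrt in the Fra-2 line. It gave -0.22 to 0.31 for Fcgr4 between controls, and -0.0779 to 0.037 for Fcgr3 and -0.15 to 0.15 for Fcer1g in the difference of knockout differences. The number of features called between knockout and control was unstable. In the Fra-1 line, 3 became 23 (quantile), 1 (only the groups compared) or 0 (normexp, no filter, filter on all arrays, slide block, trended prior), and 0 to 20 without 1 array. In the Fra-2 line, 2 became 14 (quantile), 10 (normexp), 4 (filter on all arrays), 58 (trended prior) or 0 (no filter, slide block, only the groups compared), and 0 to 47 without 1 array. For the difference of knockout differences, 1 became 10 (quantile) or 0 (normexp, no filter, filter on all arrays, slide block, trended prior), and 0 to 27 without 1 array. Between the lines the number called was 5674 to 8547 among controls and 5404 to 9033 among knockouts without 1 array. Where 1 array is left out, the lone array of its group is assumed to vary like the other groups.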
